A study of Homo sapiens with 14 samples.

Results

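The RNA of SLC7A11 and 8 further amino acid transport genes was followed across 14 libraries of HCT116 cells. The 9 genes are SLC7A11, its antisense RNA SLC7A11-AS1, SLC3A2, SLC7A5, SLC7A1, SLC38A2, SLC1A4, SLC1A5 and SLC6A9. They were matched by symbol to the 78686 gene identifiers in each table, and all 9 were found. The genes were chosen on results of these same libraries, in which several stood high after Nutlin. Their values after Nutlin are therefore given as a description, and tests are kept to the effects of 5-Ph-IAA.

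HCT116 is a colon carcinoma cell line. Every library, controls included, came from HCT116 cells that carry osTIR1(F74G), a plant-derived ubiquitin ligase subunit, and SAF-A (gene HNRNPU) joined to mAID and Halo tags, so that the auxin analog 5-Ph-IAA marks SAF-A for degradation. The libraries were read as 2 sets from the wording of their titles and library names, which do not state a division, and each group was compared with the vehicle of its set. The time-course set held DMSO vehicle, 5-Ph-IAA for 3 h and 5-Ph-IAA for 12 h. The labels give no time for this vehicle, which served for both 3 h and 12 h. At 12 h an effect of 5-Ph-IAA therefore cannot be told apart from one of time in culture. The Nutlin set held its own DMSO control, Nutlin, 5-Ph-IAA, and both agents together, with 3 h in the labels of the treated groups but no word on which agent the time belongs to and no dose. Nutlin blocks the binding of MDM2 to p53, which stabilises p53. Each of the 7 groups had 2 libraries. The labels do not say whether these came from separate cultures or how many clones the line represents, and p-values then measure only the spread between these libraries.

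Amino acids cross the plasma membrane through carriers of several families. SLC3A2 (4F2hc, CD98) is a heavy chain with no transport activity of its own. It pairs with a light chain, either SLC7A11 (xCT), which brings in cystine in exchange for glutamate and so feeds glutathione synthesis, or SLC7A5 (LAT1), which brings in leucine and other large neutral amino acids. SLC7A1 (CAT1) carries the cationic amino acids arginine and lysine and needs no heavy chain. SLC38A2 (SNAT2), SLC1A4 (ASCT1) and SLC1A5 (ASCT2) are sodium-dependent carriers of small neutral amino acids, with glutamine a main substrate of SLC1A5. SLC6A9 (GLYT1) takes up glycine. When amino acids run short or proteins misfold, kinases of the integrated stress response slow translation and raise the transcription factor ATF4, which binds composite sites in several of these genes. NRF2, the factor of the antioxidant response, is another known activator of SLC7A11.

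The promoters are shown here because the sites of both factors are short motifs that can be read directly. RefSeq windows on GRCh38.p14, from 250 bases before to 50 bases after an annotated start, were at hand for 7 of the 9 genes in 12 entries. SLC7A11 and SLC7A11-AS1 had no entry. The core of the ATF4 composite site, TGATGNAA on either strand, was present in 4 of the 12 windows and in 3.62% of all 35116 promoter windows. The core of the antioxidant response element, TGACNNNGC on either strand, was in 4 of the 12 and in 13.35% of all windows. No match of one core overlapped a match of the other. Each line below gives 30 bases on the strand of the gene, 5′ to 3′, with the matched core in capitals. Positions count the first transcribed base as +1.
SLC1A4 ATF4 core, at -7 to +1: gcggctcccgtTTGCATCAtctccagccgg
SLC3A2 ATF4 core, at +38 to +45: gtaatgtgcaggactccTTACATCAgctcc
SLC7A1 ATF4 core, at +8 to +15: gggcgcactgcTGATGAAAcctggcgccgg
SLC1A5 ATF4 core, at -97 to -90: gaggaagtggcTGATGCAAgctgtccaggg
SLC3A2 antioxidant core, at -37 to -29: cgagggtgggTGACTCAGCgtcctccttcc
SLC7A1 antioxidant core, at -85 to -77: tgcccggcggTGACGCGGCcgagcgggccg
SLC7A5 antioxidant core, at -2 to +7: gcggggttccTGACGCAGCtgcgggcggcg
SLC1A5 antioxidant core, at -111 to -103: cctggatcttGCGAGGTCAgctcccgctcc
The windows lie at chr2:64989381-64989410 (+ strand) for SLC1A4, chr11:62881719-62881748 and chr11:62881652-62881681 (+) for SLC3A2, chr13:29595663-29595692 and chr13:29595754-29595783 (- strand) for SLC7A1, chr16:87869490-87869519 (-) for SLC7A5, and chr19:46784893-46784922 and chr19:46787385-46787414 (-) for SLC1A5. SLC3A2 and SLC7A1 held both cores, in both cases in 1 promoter entry. The SLC1A5 cores stood in separate entries, upstream of annotated starts at chr19:46787293 and chr19:46784814, which lie inside the gene. The SLC1A5 entry at chr19:46788545-46788844, at the 5′ end of the gene, held neither core. The SLC1A4 and SLC3A2 cores also belonged to starts inside these genes, at chr2:64989399 and chr11:62881699. Neither core was found in the SLC38A2 or SLC6A9 windows. A match describes the letters only and no binding was measured. A tie between these cores and the RNA levels was not tested. Nothing is read from the shares, since the genes were chosen on results of these libraries.

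The time-course libraries held 29.6 to 35.1 M expected counts (M, mega), except for replicate 2 of 12 h at 3.54 M, and those of the Nutlin set held 12.6 to 17.2 M. Levels below are counts per M after TMM scaling within a set (CPM), which are not comparable between the sets. All 9 genes passed the filter on low counts in every fit, from 3 counts of SLC7A11-AS1 in the shallow 12 h library to 25887 of SLC38A2. Replicates differed beyond counting error in every group, most of all the Nutlin pair (chi-square of 22.2 for each degree of freedom, against 3.28 to 14.8 elsewhere). This pair decides several values below. HNRNPU RNA, whose protein is the target, was not lower after 5-Ph-IAA. It stood higher at 12 h (527 ± 24.8 CPM in the time-course vehicle and 653 ± 24.9 at 12 h, SD, n = 2). RNA does not check the loss of the protein. CDKN1A, the p21 gene and a p53 target, went from 199 ± 1.97 to 528 ± 12.7 CPM with Nutlin, and MDM2, another p53 target, from 261 ± 20.9 to 379 ± 44.5 CPM. At 12 h of 5-Ph-IAA, MDM2 had 225 ± 6.53 CPM against 295 ± 1.87 in vehicle, and CDKN1A 338 ± 23.8 against 338 ± 3.82. Of 8 epithelial markers, 7 were at 4.87 CPM or more in every library, and VIL1 reached at most 1.09 CPM. Markers of leukocytes, endothelium, fibroblasts and hepatocytes summed to between 1.52 and 4.68 CPM over 10 genes, with CD3E and DCN at 0.

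Per unit of transcript length (authors' TPM), the small neutral carrier SLC38A2 and the heavy chain SLC3A2 were the most abundant members in vehicle cells. In the time-course vehicle the order was SLC38A2 at 166 ± 10.2 TPM, SLC3A2 at 118 ± 8.5, SLC1A5 at 42.8 ± 5.59, SLC7A5 at 22.8 ± 2.65, SLC7A1 at 5.51 ± 0.58 and SLC7A11 at 4.44 ± 0.042 (SD, n = 2). SLC1A4 (0.775 ± 0.177 TPM), SLC6A9 (0.39 ± 0.226) and SLC7A11-AS1 (0.185 ± 0.092) followed at under 1 TPM, and the replicate values of SLC6A9 and SLC7A11-AS1 overlapped. The Nutlin-set vehicle gave the same order of means, and there the values of SLC1A4 overlapped those of SLC6A9 and of SLC7A11-AS1, while the SLC6A9 values (0.44 and 0.55 TPM) were just above those of SLC7A11-AS1 (0.43 and 0.1). The cystine light chain was thus a minor partner of the heavy chain at the RNA level, at 3.99% and 3.55% of SLC3A2 TPM in the time-course vehicles, while SLC7A5 stood at 22.0% and 16.9%.

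**Figure D1:**
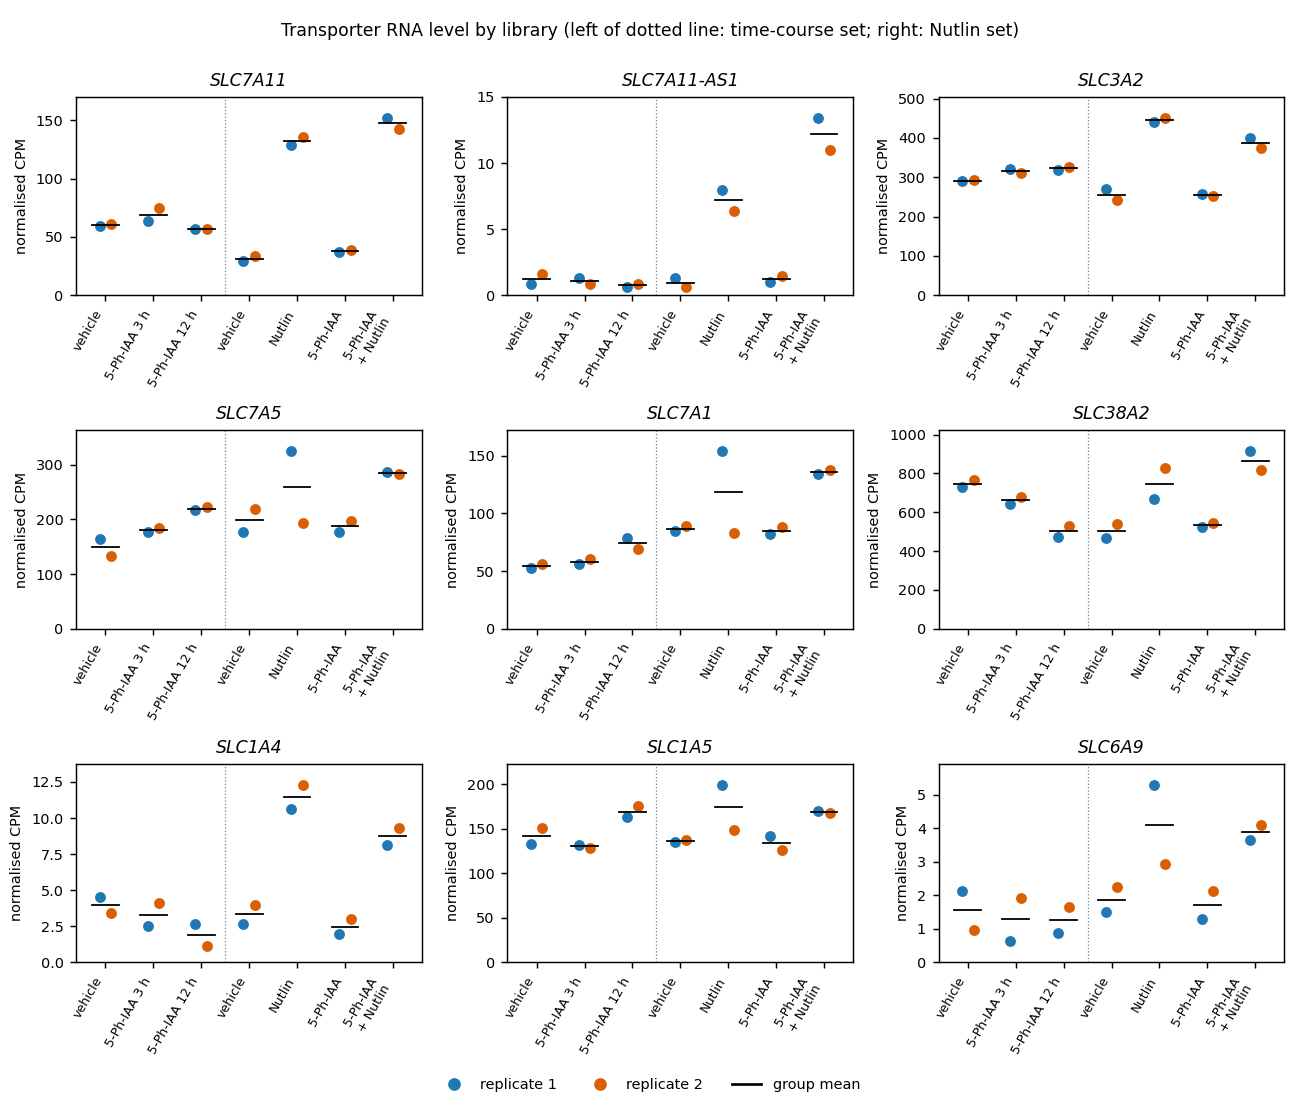
Normalised CPM (linear axis from 0) of the 9 genes in each library, with replicate 1 in blue, replicate 2 in orange and the group mean as a line. The time-course set is left of the dotted line and the Nutlin set right of it. All 4 libraries with Nutlin stand above the other 4 of their set for SLC7A11, whereas the Nutlin pair is split for SLC7A5 and SLC7A1.

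SLC7A11 (ENSG00000151012.13, chr4:138164097-138242349, - strand, GRCh38, GENCODE 29) did not pass the test at either time of 5-Ph-IAA. Its levels were 59.2 and 61.5 CPM in the time-course vehicle, 63.3 and 75.1 at 3 h, and 56.7 and 57.0 at 12 h. The 3 h libraries lay above vehicle and the 12 h libraries below it. With 2 libraries per group such a lack of overlap with vehicle is common. Of all tested genes 18.7% lay above vehicle and 20.1% below it at 3 h, and 22.9% and 27.9% at 12 h. On the TPM scale SLC7A11 at 12 h was not clear of vehicle, with 4.08 and 6.25 against 4.47 and 4.41. The log2 fold change was 0.20 ± 0.10 (SE) at 3 h (edgeR adjusted p = 0.794) and -0.09 ± 0.11 at 12 h (adjusted p = 0.698), and the 95% interval at 12 h, -0.32 to 0.15, covers changes of that size in either direction. The Nutlin-set levels were 29.4 and 33.3 CPM in vehicle, 37.5 and 38.8 with 5-Ph-IAA, 129 and 136 with Nutlin, and 152 and 143 with both agents. These groups did not overlap, and the order was vehicle, 5-Ph-IAA, Nutlin, both. Of all tested genes 14.7% lay above vehicle with 5-Ph-IAA in this set, and 17.3% lay above Nutlin with both agents. Nutlin gave a fold of 4.22 (log2 2.08 ± 0.10) without 5-Ph-IAA and 3.86 (1.95 ± 0.10) with it. The difference made by 5-Ph-IAA alone in this set, 0.28 ± 0.10, had an unadjusted p of 0.0199 and an edgeR adjusted p of 1, and its size did not differ detectably from that in the time-course set (difference 0.07 ± 0.14, adjusted p = 0.959).

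SLC7A11-AS1 (ENSG00000250033.6, chr4:138057464-138178177, + strand) is a noncoding RNA that runs tail to tail with SLC7A11. The genes overlap at chr4:138164097-138178177, over 14081 bases, and their exons share 865 bases, or 14% of the 6161 exon bases of the antisense gene. Counting SLC7A11 introns as well, 3681 of the 6161 lie inside SLC7A11. The tables list 10 transcripts for it where GENCODE 29 has 5, so the exons counted may differ from these coordinates. The libraries were made with a stranded kit. Whether counting used the strand is not given in the sources used here, so reads in these bases, from unspliced SLC7A11 RNA included, may not have been told apart. Counts were low without Nutlin, at 29 and 55 in the time-course vehicle, 44 and 29 at 3 h, and 20 and 3 at 12 h. In CPM these were 0.867 and 1.62, 1.29 and 0.873, and 0.668 and 0.822, with vehicle and 3 h overlapping. The Nutlin set had 1.30 and 0.599 CPM in vehicle, 1.04 and 1.45 with 5-Ph-IAA, 7.95 and 6.39 with Nutlin, and 13.4 and 10.9 with both. Every library with Nutlin stood above every one without it, and those with both agents above those with Nutlin alone. The latter order held for 17.3% of all tested genes. The log2 fold change with Nutlin was 2.87 ± 0.33 without 5-Ph-IAA and 3.30 ± 0.31 with it.

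The antisense RNA also stood higher relative to its partner. Per 100 SLC7A11 counts there were 4.44 and 1.80 antisense counts in the Nutlin-set vehicle and 2.78 and 3.73 with 5-Ph-IAA. With Nutlin there were 6.17 and 4.71, and with both agents 8.82 and 7.67. In the time-course set the ratio lay between 1.16 and 2.64. The 4 libraries with Nutlin were above the other 10, with a narrow gap to the first Nutlin-set vehicle. Adding 5-Ph-IAA to Nutlin gave a log2 difference of 0.77 ± 0.26 in the antisense RNA, with an unadjusted p of 0.0143 and an edgeR adjusted p of 0.604, against 0.16 ± 0.09 in SLC7A11 (adjusted p = 0.683). With each library left out in turn the antisense difference lay between 0.61 and 0.92, the highest without replicate 1 of Nutlin. The TPM ratio of this pair is less useful, since the mean transcript length that RSEM assigned to the antisense gene ranged from 1549 to 4666 bases between libraries.

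**Figure D2:**
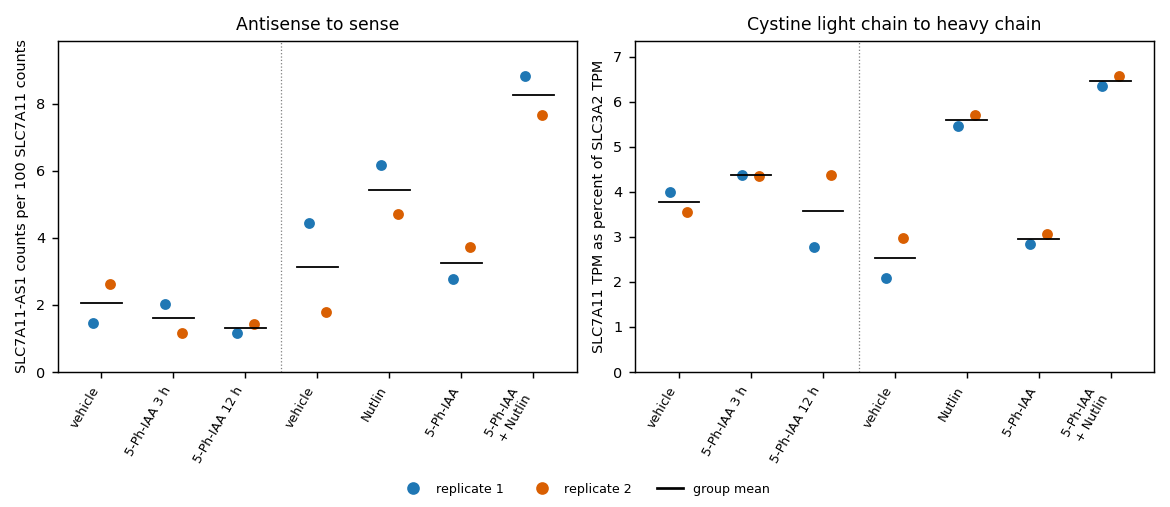
Left, SLC7A11-AS1 counts per 100 SLC7A11 counts; right, SLC7A11 TPM as a percent of SLC3A2 TPM, both on linear axes from 0, 1 point per library with the group mean as a line. The libraries with both agents are the highest in both panels, at 8.82 and 7.67 counts on the left and 6.35% and 6.56% on the right.

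SLC3A2 (ENSG00000168003.19, chr11:62856102-62888875, + strand), the shared heavy chain, varied little in the time course. It stood at 291 and 292 CPM in vehicle, 321 and 311 at 3 h, and 319 and 327 at 12 h. Both treated groups lay above vehicle, by 0.12 ± 0.06 and 0.15 ± 0.06 on the log2 scale, and neither difference passed the test (edgeR adjusted p = 0.807 and 0.174). By DESeq2 the 12 h difference of 0.17 had an adjusted p of 0.0463. Its Nutlin-set levels were 270 and 242 CPM in vehicle, 258 and 251 with 5-Ph-IAA, 440 and 451 with Nutlin, and 399 and 373 with both. The groups with Nutlin were clear of the others, with log2 differences of 0.80 ± 0.09 and 0.60 ± 0.09. The libraries with both agents were below those with Nutlin alone (-0.21 ± 0.09, edgeR adjusted p = 0.611), as they were for 18.2% of all tested genes. On the TPM scale this last order was not seen, with 182 and 158 TPM for Nutlin and 180 and 173 for both. The mean transcript length assigned to the gene was 1881 and 1960.5 bases with Nutlin and 1731 and 1808 with both.

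Set against its heavy chain, SLC7A11 was 2.09% and 2.97% of SLC3A2 TPM in the Nutlin-set vehicle, 2.84% and 3.06% with 5-Ph-IAA, 5.46% and 5.71% with Nutlin, and 6.35% and 6.56% with both. At the RNA level, by TPM, the heavy chain therefore stood in large excess over this light chain in every library, and protein was not measured. The mean transcript length assigned to SLC7A11 ranged from 6590 to 9645 bases between libraries, which also moves this ratio. Against the other light chain, SLC7A11 was 7.997% and 8.25% of SLC7A5 TPM in vehicle, and 25.2% and 23.8% with both agents. The Nutlin replicates gave 19.3% and 33.3%, where SLC7A11 had 9.92 and 9.04 TPM and SLC7A5 had 51.4 and 27.1.

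SLC7A5 (ENSG00000103257.11, chr16:87830023-87869488, - strand), the leucine light chain, rose after 12 h of 5-Ph-IAA. It had 164 and 133 CPM in the time-course vehicle, 177 and 184 at 3 h, and 216 and 222 at 12 h. These groups did not overlap, and the means stood in the order of the times. The log2 fold change at 12 h was 0.56 ± 0.10 (edgeR adjusted p = 0.00316), a fold of 1.47. At 3 h it was 0.28 ± 0.09 (unadjusted p = 0.00997, adjusted p = 0.68). With each library left out in turn the 3 h value lay between 0.15 and 0.46, the highest without the first vehicle replicate. The Nutlin set gave 178 and 218 CPM in vehicle and 178 and 197 with 5-Ph-IAA, which overlap. Nutlin replicate 1 had 325 CPM and replicate 2 had 193, within the range of vehicle. Both agents gave 287 and 282 CPM, above the 5-Ph-IAA libraries by 0.61 ± 0.20 on the log2 scale.

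SLC7A1 (ENSG00000139514.13, chr13:29509410-29595688, - strand), the arginine and lysine carrier, showed the same split. Its time-course levels were 53.01 and 55.8 CPM in vehicle, 56.0 and 60.5 at 3 h, and 78.6 and 69.3 at 12 h. The 12 h libraries were above all others of the set. It rose by 0.46 ± 0.10 on the log2 scale at 12 h against vehicle (edgeR adjusted p = 0.0124) and by 0.36 ± 0.10 against 3 h (adjusted p = 0.0483). Without replicate 1 of 12 h, which leaves the library of 3.54 M counts, the value against vehicle was 0.36 (adjusted p = 0.169). The call against 3 h held in 1 of 4 fits with a library left out (without replicate 2 of 12 h), with values from 0.25 to 0.41 and adjusted p of 0.134 to 0.408 in the others. Vehicle of the Nutlin set had 84.4 and 88.7 CPM and 5-Ph-IAA 81.9 and 88.2. With Nutlin it had 154 and 82.8 CPM, the second at the level of vehicle, and with both agents 134 and 137.

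The replicate gap of the Nutlin pair was large for these genes among all 17251 tested. The log2 ratio of replicate 1 to replicate 2 was 0.75 for SLC7A5, above 91.3% of the tested genes, and 0.89 for SLC7A1, above 94.0%. SLC6A9 had 0.76 and SLC1A5 0.42. For SLC7A11 (-0.07), SLC3A2 (-0.03), SLC1A4 (-0.20) and SLC38A2 (-0.31) the ratio was near or below 0. Nutlin replicate 2 was thus high for cystine transport and the heavy chain but not for the leucine and cationic carriers. With Nutlin replicate 1 left out, the log2 differences of SLC7A5 and SLC7A1 from vehicle were -0.04 and -0.06, and with replicate 2 left out 0.71 and 0.83. No such gap was present with both agents, where SLC7A5 and SLC7A1 had log2 ratios of 0.02 and -0.04.

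**Figure D3:**
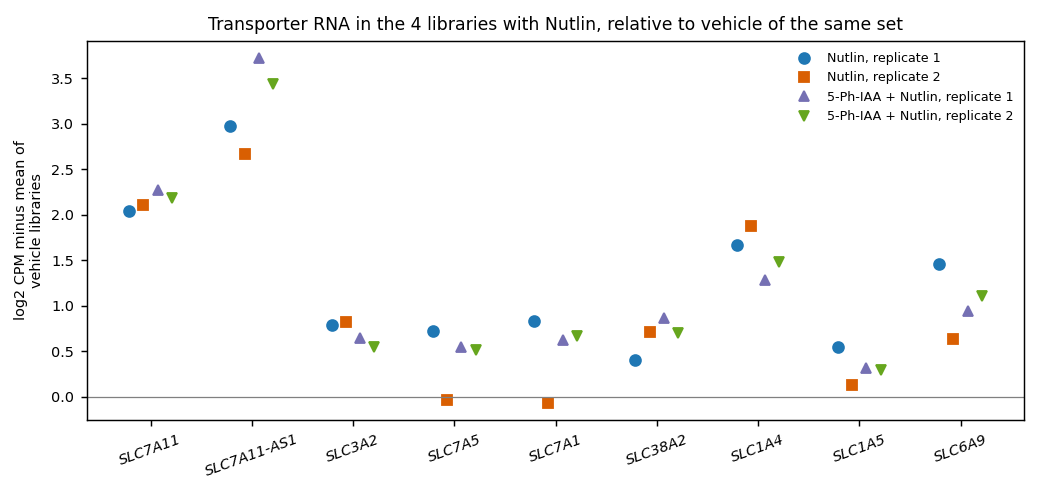
Level of each gene in the 4 libraries with Nutlin as log2 CPM minus the mean of the vehicle libraries of the Nutlin set (0 line). The first Nutlin replicate (blue circle) and the second (orange square) lie close for SLC7A11 and SLC3A2, while for SLC7A5 and SLC7A1 the second replicate lies at the vehicle level.

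SLC38A2 (ENSG00000134294.14, chr12:46358189-46372867, - strand), a carrier of small neutral amino acids, fell after 12 h of 5-Ph-IAA. It stood at 730 and 764 CPM in the time-course vehicle, 645 and 679 at 3 h, and 474 and 528 at 12 h. The groups did not overlap. The log2 difference from vehicle was -0.58 ± 0.07 at 12 h (edgeR adjusted p = 0.000443), a fold of 0.669, and that from 3 h was -0.41 ± 0.07 (adjusted p = 0.00392). At 3 h it was -0.17 ± 0.07 (unadjusted p = 0.0199, adjusted p = 0.73). With each library left out in turn, the 12 h difference lay between -0.66 and -0.49 and passed the test in all 4 fits. In the Nutlin set it had 469 and 538 CPM in vehicle and 526 and 547 with 5-Ph-IAA, which overlap, then 666 and 826 with Nutlin and 913 and 816 with both. SLC38A2 was thus lower after 12 h of 5-Ph-IAA and higher with Nutlin, by 0.57 ± 0.12 and 0.69 ± 0.12 in the absence and presence of 5-Ph-IAA. By TPM, SLC3A2 took its place at 12 h as the most abundant member, at 145 ± 3.11 TPM against 119 ± 8.56. The mean transcript length assigned to SLC3A2 was 1896 and 1825 bases in vehicle and 1691 and 1828 at 12 h, which also moves its TPM.

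SLC1A5 (ENSG00000105281.13, chr19:46774883-46788594, - strand), the glutamine carrier, had 133 and 151 CPM in the time-course vehicle, 132 and 129 at 3 h, and 163 and 176 at 12 h. The 12 h libraries were the highest of the set. It rose between 3 h and 12 h by 0.37 ± 0.09 (edgeR adjusted p = 0.0216), while the difference of 12 h from vehicle, 0.25 ± 0.09, did not pass (adjusted p = 0.0873). The call between 3 h and 12 h was lost with any of these 4 libraries left out, with adjusted p between 0.0556 and 0.118. In the Nutlin set it had 135 and 138 CPM in vehicle, 142 and 126 with 5-Ph-IAA, 200 and 149 with Nutlin, and 170 and 168 with both. The groups with Nutlin were above those without, by 0.35 ± 0.13 and 0.33 ± 0.13 on the log2 scale, the smallest differences among the members.

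SLC1A4 (ENSG00000115902.11, chr2:64988477-65023865, + strand), which carries alanine, serine and cysteine, was low throughout. Its time-course levels were 4.51 and 3.39 CPM in vehicle, 2.52 and 4.09 at 3 h, and 2.67 and 1.10 at 12 h, the last from 4 counts. Against vehicle the 12 h difference was -0.88 ± 0.45 (edgeR adjusted p = 0.248), and its 95% interval of -1.85 to 0.10 shows how little the depth allows. The TPM of this gene did not show the same direction, at 0.775 ± 0.177 in vehicle and 0.875 ± 0.403 at 12 h. Its levels in the Nutlin set were 2.67 and 3.97 CPM in vehicle, 1.96 and 2.97 with 5-Ph-IAA, 10.6 and 12.3 with Nutlin, and 8.13 and 9.32 with both. Libraries with Nutlin were clear of the others, with folds of 3.47 and 3.57 (log2 1.79 ± 0.25 and 1.84 ± 0.26).

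SLC6A9 (ENSG00000196517.13, chr1:43991500-44031467, - strand), the glycine carrier, was the least abundant of the protein-coding members in vehicle cells. It had 2.12 and 0.974 CPM in the time-course vehicle, 0.645 and 1.93 at 3 h, and 0.868 and 1.64 at 12 h. The 3 groups overlapped. In the Nutlin set it had 1.499 and 2.25 CPM in vehicle, 1.29 and 2.13 with 5-Ph-IAA, 5.30 and 2.92 with Nutlin, and 3.64 and 4.11 with both. The libraries with Nutlin were higher in each arm, by 1.13 ± 0.38 and 1.19 ± 0.39 on the log2 scale, from 21 to 30 counts without Nutlin and 48 to 68 with it.

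Across the members, 5-Ph-IAA left no change that passed the test at 3 h in either set. By edgeR, 0 of 9 passed in the time-course set, where 0.0682% of all tested genes passed, and 2 had an unadjusted p under 0.05, as did 6.45% of all genes. In the Nutlin set 0 of 9 passed beside 0% of all genes, with 1 at an unadjusted p under 0.05, beside 1.42% of all genes. DESeq2 called 0 in both. The difference between the sets was tested itself and 0 of 9 passed, beside 0.0636% of all genes, with 2 at an unadjusted p under 0.05, beside 6.35% of all genes, and 0 by DESeq2. These 2 were SLC7A5 (-0.38 ± 0.15, adjusted p = 0.748) and SLC38A2 (0.25 ± 0.10, adjusted p = 0.734).

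At 12 h the members parted. Against vehicle 2 of 9 rose (SLC7A5 and SLC7A1), beside 3.39% of all genes, and 1 fell (SLC38A2), beside 7.97%. DESeq2 called 5, adding SLC3A2 and SLC1A5 to those that rose, and by it 845 of all 19049 genes were higher and 1457 lower. Against 3 h 2 rose (SLC7A1 and SLC1A5), beside 2.35% of all genes, and SLC38A2 fell, beside 5.79%. Both comparisons use the same 12 h libraries. The median log2 fold change of the 9 genes at 12 h against vehicle was -0.09, and that of all tested genes was -0.0031. Bulk RNA cannot tell a change in each cell from a change in which cells are present, and of 7 epithelial markers tested 2 also rose at 12 h, 0 fell and 5 in all had a positive difference. Those that rose were KRT18 and KRT19, by 0.34 ± 0.07 (edgeR adjusted p = 0.0108) and 0.20 ± 0.04 (adjusted p = 0.0123). Their part in the result was not tested.

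With Nutlin all 9 members had a positive log2 difference in both arms, with medians of 0.80 and 0.69. Libraries did not overlap for 7 of 9 genes without 5-Ph-IAA, where 18.3% of all genes had Nutlin libraries above both vehicles, and for 9 of 9 with 5-Ph-IAA, where 23.1% did. SLC7A5 and SLC7A1 were the exceptions in the first. Nothing is read from these counts, since Nutlin results chose the genes.

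Adding 5-Ph-IAA to Nutlin changed no member past the threshold. By edgeR 0 of 9 differed between both agents and Nutlin alone, beside 0% of all genes, with 2 at an unadjusted p under 0.05 (SLC7A11-AS1 and SLC3A2), beside 8.14% of all genes, and 0 by DESeq2. For the interaction of both agents 0 of 9 passed, beside 0% of all genes, with 0 at an unadjusted p under 0.05 and 0 by DESeq2. These estimates share libraries with the Nutlin comparisons. The interaction of SLC7A11 was -0.13 ± 0.14 with a 95% interval from -0.44 to 0.18, which covers modest differences in its Nutlin response in both directions. Leaving out Nutlin replicate 1 made the interaction 0.64 for SLC7A5 and 0.73 for SLC7A1. That fit rests on 1 Nutlin library, and calls over all genes rose in it as well, for the interaction and for both agents against Nutlin.

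**Figure D4:**
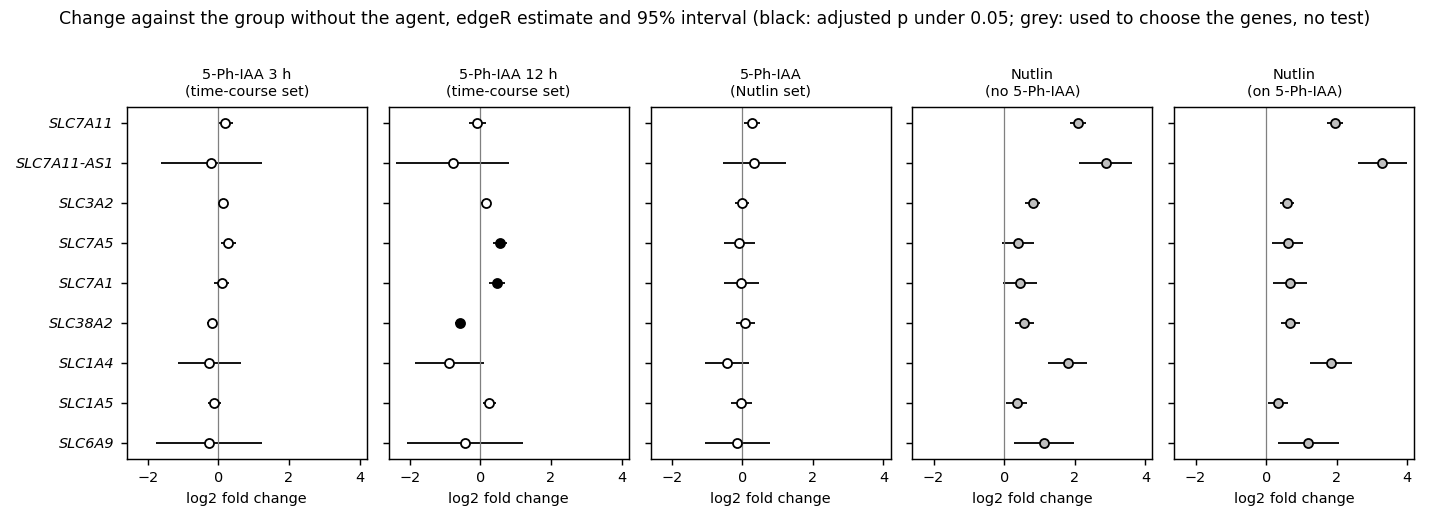
Log2 fold change of each gene with its 95% interval in 5 comparisons, from edgeR. Black points passed an adjusted p of 0.05, white points did not, and grey points are the Nutlin comparisons that chose the genes and carry no test. SLC7A5 and SLC7A1 lie right of 0 and SLC38A2 left of it at 12 h, while all 9 genes lie right of 0 in both Nutlin panels.

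The other amino acid transporters form a list for comparison, and its counts with Nutlin are a description. Of its 44 genes, 25 had enough counts for the time-course fit and 23 for the Nutlin fit. At 12 h 0 of 25 rose, beside 3.39% of all genes, and 3 fell, beside 7.97%. Those that fell were SLC36A4 (log2 -0.96 ± 0.23, edgeR adjusted p = 0.0185), SLC38A9, a lysosomal arginine sensor of the mTORC1 pathway (-0.75 ± 0.18, adjusted p = 0.0198), and SLC38A1 (-0.26 ± 0.07, adjusted p = 0.0435). SLC38A1, the close relative of SLC38A2, had 310 and 353 CPM in vehicle and 279 and 274 at 12 h. With Nutlin 0 of 23 passed in either arm (0.394% and 0.342% of all genes were higher), with medians of -0.04 and 0.0061 beside -0.0033 and 0.00061 for all genes. The most expressed of them were SLC38A1, with 340 and 360 CPM in vehicle and 353 and 381 with Nutlin, and SLC38A10, with 79.0 ± 5.9 and 73.3 ± 8.56 CPM (SD, n = 2).

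The programs known to act on SLC7A11 were read from lists. These lists were chosen with earlier results of these data known. Their counts with Nutlin are a description, and nothing is read from the shares beside them. Of 18 integrated stress response genes 10 had an adjusted p under 0.05 and were higher with Nutlin in each arm, beside 0.394% and 0.342% of all genes, and 0 were lower, with medians of 0.68 and 0.61. The lowest p-values without 5-Ph-IAA were those of DDIT3 (log2 3.34), CHAC1 (4.35), SESN2 (2.17) and TRIB3 (1.84). ATF4 went from 401 and 377 CPM in vehicle to 748 and 815 with Nutlin, and DDIT3, the stress factor CHOP, from 15.2 and 14.5 to 147 and 152. At 12 h of 5-Ph-IAA the counts, 1 of 18 higher and 2 lower, were near the shares of all genes (3.39% and 7.97%). The gene that rose was ATF4 (0.31 ± 0.06, edgeR adjusted p = 0.00939), and those that fell were the ATF4 partner CEBPG (-0.36 ± 0.10, adjusted p = 0.0329) and the kinase EIF2AK3 (-0.65 ± 0.17, adjusted p = 0.0282). ATF4 had 374 and 370 CPM in the time-course vehicle and 479 and 440 at 12 h. ASNS, asparagine synthetase and a known ATF4 target, had 161 and 178 and then 134 and 152, a difference that did not pass. Of the 18 genes 11 had a positive difference at 12 h, with a median log2 fold change of 0.077. Of 14 NRF2 pathway genes 0 passed with Nutlin in either arm, with medians of 0.05 and 0.01. The most expressed were TXNRD1, thioredoxin reductase, at 719 ± 9.93 CPM in vehicle and 756 ± 75.5 with Nutlin, and NQO1 at 387 ± 9.19 and 432 ± 64.6. TXNRD1 alone of the 14 passed between 3 h and 12 h of 5-Ph-IAA, where it fell (-0.20 ± 0.05, adjusted p = 0.037), beside 5.79% of all genes. Among 6 tested genes of cystine and glutathione use 0 passed with Nutlin, and 1 fell at 12 h of 5-Ph-IAA, TXN, thioredoxin (-0.41 ± 0.07, adjusted p = 0.00263), from 475 and 442 to 345 and 345 CPM.

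Over all 14 libraries, with each set centred on its own vehicle, the genes whose log2 CPM followed SLC7A11 most closely were ASNS (Pearson r 0.988), DDIT3 (0.987), TSC22D3 (0.981), CDKN1A (0.979) and CHAC1 (0.978), out of 11750 genes ranked. These values describe the libraries and carry no test, since the 4 libraries with Nutlin stand apart from the other 10 and set the correlation. Of the other members, SLC3A2 had 0.931 (rank 32), SLC38A2 0.887 (rank 68) and SLC1A4 0.88 (rank 79). SLC1A5 had 0.623, SLC7A1 0.581 and SLC7A5 0.395, while SLC7A5 and SLC7A1 followed each other at 0.893. SLC7A11-AS1 (0.962) and SLC6A9 (0.763) were below the level needed for a rank.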

How the data were processed

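RNA was measured as stranded total RNA libraries in 14 samples, and the authors deposited RSEM gene tables that, per the file headers, hold expected counts, TPM and FPKM for 78686 identifiers. The submitters' processing notes name STAR 2.7.10b, RSEM, DESeq2 1.48.1 and hg38, without the role of each. The annotation release is not given in the sources used here. Symbols were matched for 61463 identifiers (78.1%). Expected counts, of which 91.9% were whole, were rounded. Each set was fitted apart with edgeR 4.0.16 in R 4.3.3 (filterByExpr with a minimum count of 10 and total of 15, TMM, quasi-likelihood F test, 1 coefficient per group), so that 19049, 17251 and 18873 genes were tested in the time-course fit, the Nutlin fit and a fit of the 3 h libraries of both, on 3, 4 and 4 residual degrees of freedom. Two-sided p-values were Benjamini-Hochberg adjusted over all tested genes, at 0.05. An SE is the size of the log2 fold change over the root of F. TPM served to compare genes with each other, and FPKM, as deposited, as its alternative. The tests were checked on simulated data.

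The 9 genes and all lists were chosen with earlier results of these data known. Each list is represented by at most 4 genes with the lowest p among those that passed, by its 2 most expressed genes if there were none, while ATF4 with Nutlin, ASNS at 12 h and the markers KRT18 and KRT19 were picked after their values were seen. Genes like SLC7A11 are the 5 with the highest correlation and a mean log2 CPM of at least 1 in both sets, with a prior count of 2. The labels do not say whether replicate numbers pair the libraries. Deviations of replicate 1 hardly correlated between groups (-0.0888 to 0.047 across genes), which does not settle this. In the main fit the numbers serve as names only. Alternatives were DESeq2 1.42.0, RLE factors, no low-count filter, the replicate block, the compared groups only, FPKM, and each library left out in turn. The level of 1 marker gene is not reported here. No molecular tags are described, so PCR copies are not separated from molecules.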

Additional observations from a re-analysis of the deposited data

How the results depend on the processing

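At 12 h of 5-Ph-IAA against vehicle, SLC38A2 (lower) and SLC7A5 (higher) passed in every fit with a library left out, where 2 to 4 of the 9 genes passed against 3 with all libraries, and DESeq2 called 5. Between 3 h and 12 h, 1 to 2 passed with a library left out, and at 3 h against vehicle 0 to 1. For both agents against Nutlin 0 to 3 passed, and for the interaction 0 to 2, the highest in each case without replicate 1 of Nutlin. For Nutlin, whose results chose the genes and whose counts are a description, the count against vehicle was 1 to 9, and 1 with the compared groups only. For both agents against 5-Ph-IAA it was 2 in each such fit, 8 with the compared groups only and 7 with no low-count filter. A lone library was assumed to vary like the other groups.

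With the replicate block the counts were 3, 3 and 0 in the time-course set (12 h against vehicle, 12 h against 3 h, 3 h) and 4 for Nutlin against vehicle. For both agents against 5-Ph-IAA the block gave 3, with SLC3A2 (0.60) no longer counted, and no other call changed with it. Counts in the Nutlin comparisons are a description here too, since Nutlin results chose the genes. RLE factors changed no count of members, and the FPKM order of the 9 genes in vehicle was that of TPM.

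Counts over all genes moved more. Against 2163 at 12 h there were 1391 with the compared groups only and 961 to 2446 with a library left out. Against 1551 between the times there were 2448 with no filter and 612 to 1545 with a library left out. Against 13 at 3 h there were 54 by DESeq2, 193 with no filter, 45 with the block and 23 to 283 with a library left out. Against 80 for Nutlin there were 27 with the compared groups only, 158 by DESeq2, 405 with no filter and 25 to 2131 with a library left out. Against 67 for both agents over 5-Ph-IAA there were 622, 103, 270 and 16 to 28 in the same order. Against 0 for 5-Ph-IAA in the Nutlin set there were 9, 1 and 53. Against 0 for both agents over Nutlin there were 24 by DESeq2, 136 with no filter and 0 to 2490 with a library left out, and against 0 for the interaction 1, 57 and 0 to 1035. Against 12 for the difference between sets there were 47, 177 and 5 to 145, 6 with the block and 8 with RLE factors. The cause was not tested.

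Differences that changed sign with a library left out had passed in none of these comparisons with all libraries. At 3 h in the time-course set the ranges were -0.64 to 0.065 for SLC1A4, -1.25 to 0.42 for SLC6A9 and -0.56 to 0.32 for SLC7A11-AS1. SLC6A9 ran from -0.90 to 0.26 at 12 h and from -0.76 to 0.83 between the times, and SLC3A2 from -0.0059 to 0.047 between the times, or -0.0069 with no low-count filter. For 5-Ph-IAA in the Nutlin set the ranges were -0.11 to 0.056 for SLC1A5, -0.0053 to 0.20 for SLC38A2, -0.074 to 0.078 for SLC3A2, -0.53 to 0.19 for SLC6A9, -0.077 to 0.026 for SLC7A1, -0.073 to 1.03 for SLC7A11-AS1 and -0.22 to 0.082 for SLC7A5. For both agents over Nutlin they were -0.24 to 0.18 for SLC1A5, -0.45 to 0.40 for SLC6A9, -0.18 to 0.71 for SLC7A1 and -0.19 to 0.56 for SLC7A5. For Nutlin they were -0.062 to 0.83 for SLC7A1 and -0.035 to 0.71 for SLC7A5. For the interaction they were -0.27 to 0.35 for SLC1A4, -0.21 to 0.20 for SLC1A5, -0.028 to 0.29 for SLC38A2, -0.31 to 0.54 for SLC6A9, -0.15 to 0.73 for SLC7A1, -0.26 to 0.84 for SLC7A11-AS1 and -0.11 to 0.64 for SLC7A5. For the difference between sets they were -0.50 to 0.20 for SLC1A4, -0.0072 to 0.17 for SLC1A5, -0.55 to 1.11 for SLC6A9 and -0.040 to 0.20 for SLC7A11. Depth limits SLC7A11-AS1, SLC1A4 and SLC6A9 most, with 3, 4 and 6 counts in the second 12 h library.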
